A study of Mus musculus with 24 samples.

Results

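Splenic B cells that carry CD93, sorted as the transitional subsets T1, T2FO and T3, were compared with the mature follicular (FO) and marginal zone (MZ) subsets of the same mouse strain. The question was which genes set transitional cells apart from both mature fates at once, and on which side of that division the T2MZ subset lies. The comparison rests on 10 of the 24 arrays of the series, 6 transitional and 4 mature, and the 2 T2MZ arrays were read afterwards. All 12 of these arrays come from female C57BL/6/J (B6) mice aged 7 weeks that carry no transgene or mutation named in the labels. The series also holds the same subsets from NOD mice, which were not compared here.

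Spleens of 8 mice were pooled in each of 2 independent experiments, so each subset has 2 arrays and the subsets of 1 experiment share their mice. Cells bearing CD3ε or CD11b were first depleted with magnetic beads. The subsets were then separated by flow cytometry using antibodies to CD93, CD23, CD24, B220, IgM and CD21/35. RNA was amplified from the poly(A) tail in a pair of rounds and hybridised to Affymetrix whole-genome mouse arrays. The deposited log2 values of each probe set (a group of probes for 1 transcript) were centred on that probe set's median over the 24 arrays. They show differences between arrays and no level, so the presence of B cell markers could not be checked. In arrays of sorted populations, fewer cells with a transcript and less of it per cell cannot be told apart.

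B cells leave the bone marrow immature and complete their development in the spleen. There they pass through short-lived transitional stages, marked by CD93, before they join the recirculating follicular pool or settle at the marginal zone. Many cells are lost at these stages, among them cells whose receptors bind self antigens, and survival depends on signals from the antigen receptor and from BAFF. Sox4, Lef1 and Myb encode DNA-binding proteins of immature lymphocytes. Sox4 and Lef1 proteins bend DNA through an HMG box, and Myb is needed at several steps of early lymphocyte development.

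The sort markers behaved as labelled for Cd93, the gene of the antigen that separates the classes. Its values were 3.19 and 2.92 in T1, 2.70 and 2.68 in T2FO, 2.45 and 2.76 in T3, -0.01 and 0.02 in FO, and -0.74 and -0.80 in MZ. Every transitional array lay above every mature array, and the difference (mature minus transitional) was -3.16 ± 0.11 log2 units (SE; limma, adjusted p = 0.000417). The T2MZ arrays had 0.80 and 0.64, between the classes. Cr2, which encodes the CD21/35 receptors, was higher in mature cells by 1.42 ± 0.20, whereas Fcer2a, Cd24a, Ptprc and Ighm were not among the genes shared by both fates. These genes are a check on the sort and not findings.

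Mature cells differed from transitional cells in 157 of 18193 genes (0.863%) at an adjusted p under 0.05, with 72 genes higher and 85 lower (limma with Benjamini-Hochberg adjustment over 45037 probe sets). A gene was counted as common to both fates where that difference was called, FO and MZ each differed from the transitional mean in the same direction, and each did so at an unadjusted p under 0.05. By this rule 133 genes (0.731%) were common, 54 of them higher in mature cells (0.297%) and 79 lower (0.434%). The median difference was 1.249 log2 units over the higher genes and -1.409 over the lower ones, and sizes ran from 0.624 to 3.249. With the replicate number as a block in the fit, 362 genes were called and 330 were common, 130 of the 133 among them. With the FO and MZ numbers crossed in that block these counts were 2155 and 1740, with 132 of the 133 among them. The labels do not say whether equal numbers mark the same experiment across subsets. In 117 of the 133 genes the 4 mature and 6 transitional arrays did not overlap, against 1335 of all 18193 genes (7.34%). The common genes were chosen by this contrast, so their share without overlap is a description. Of the 95 common genes with several probe sets, 71 had the same sign in all of them, and 8 had 2 or more probe sets that passed the rule.

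Among the 157 genes, 24 were called but not common, because 1 fate carried the difference. Bach2, a repressor of plasma cell differentiation, is one of them. Its arrays read 0.21 and 0.07 in FO, inside the transitional range of -0.16 to 0.51, and -2.25 and -1.68 in MZ. Tlr3, an endosomal receptor for double-stranded RNA, read 0.45 and -0.23 in FO and 3.67 and 3.77 in MZ, against -0.89 to -0.01 in transitional cells. Asb2, a ubiquitin ligase subunit, read -0.38 and -0.44 in FO and 2.63 and 2.82 in MZ. In all 3 genes it was the MZ pair that lay apart, and MZ minus FO was called in each (adjusted p = 0.0442, 0.026 and 0.0159 by limma). Taken alone, FO against the transitional mean called 12 genes and MZ against it called 175, a pair of comparisons that share the transitional arrays.

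**Figure D1:**
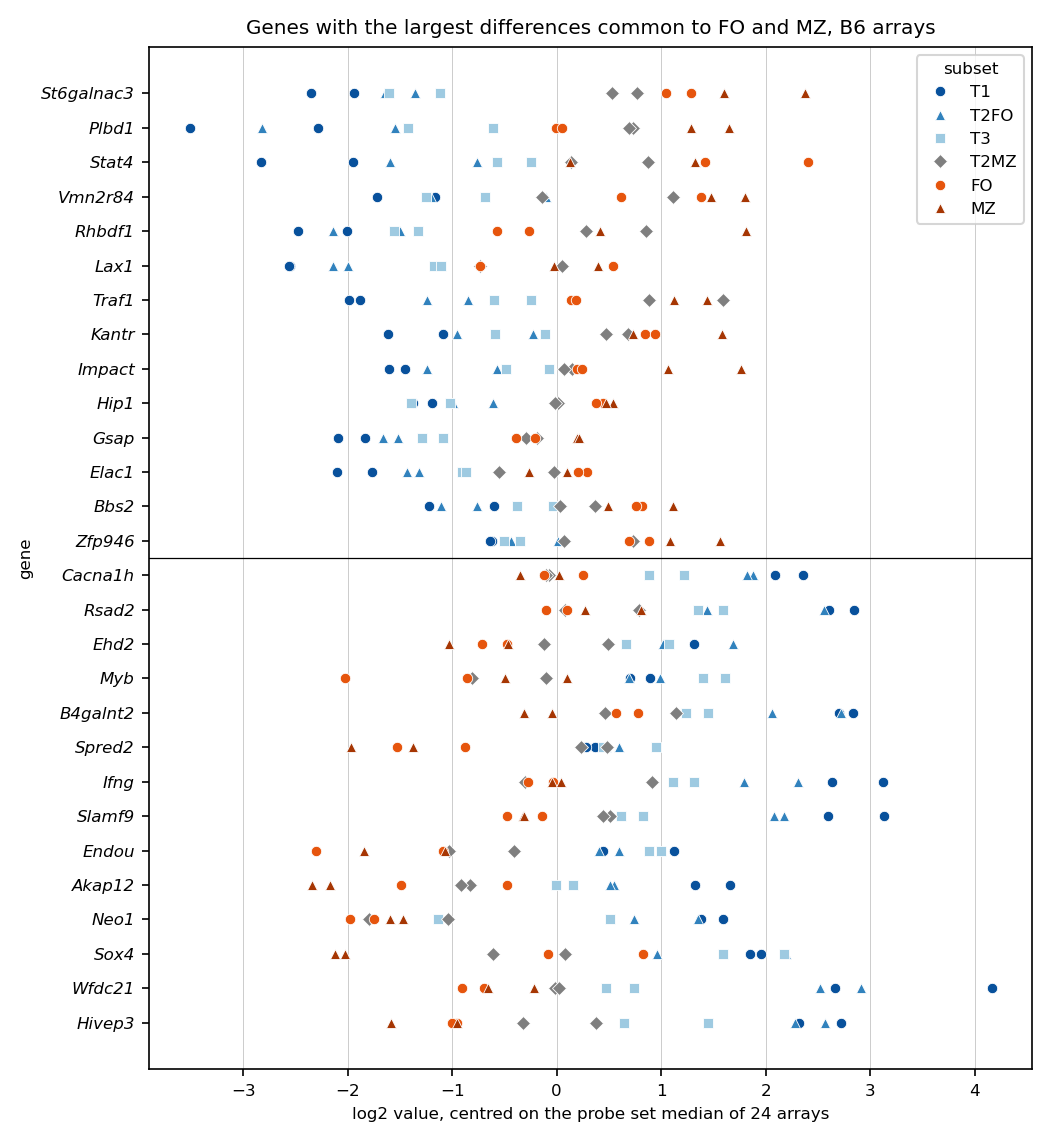
Centred log2 values (horizontal axis) of the 14 genes with the largest common difference in each direction (vertical axis), 1 point per B6 array. In each gene the 4 mature arrays (orange and brown) lie apart from the 6 transitional arrays (blue). The T2MZ arrays (grey) lie between the classes in some genes, such as Hivep3 and Slamf9. In others, such as Traf1 and Cacna1h, they lie within or beyond the mature range. Genes were chosen for this lack of overlap.

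Of the transcription factors of immature cells, Sox4 fell furthest. Its values were 1.85 and 1.95 in T1, 0.96 and 2.19 in T2FO, and 1.59 and 2.18 in T3. FO read 0.82 and -0.08, and MZ read -2.03 and -2.12. All mature arrays lay below all transitional arrays, with FO nearer to them than MZ. Sox4 was lower by 2.64 log2 units (-2.64 ± 0.29, 6.23-fold; adjusted p = 0.0223, a call kept in 2 of 10 fits with 1 array left out), that is -1.42 ± 0.37 in FO and -3.86 ± 0.37 in MZ. MZ minus FO was -2.44 and was not called (adjusted p = 0.21). Only 1 of the 8 probe sets of Sox4 passed the rule, and 7 had the same sign.

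Myb and Lef1 fell with it. Myb read 0.90 and 0.70 in T1, 0.70 and 0.99 in T2FO, and 1.40 and 1.61 in T3, against -2.03 and -0.86 in FO and -0.49 and 0.10 in MZ. Its difference was -1.87 ± 0.25 (adjusted p = 0.0381), and here FO was the lower of the 2 fates. Lef1 read -0.10 and -0.17 in T1, 0.82 and 0.56 in T2FO, and 0.87 and 0.41 in T3. Its FO arrays read -0.77 and -0.51 and its MZ arrays -1.15 and -0.83, below every transitional array. The difference was -1.21 ± 0.14 (adjusted p = 0.0263). T1 held the lowest transitional values of Lef1, unlike Cd93, where T1 held the highest. The list of immature B cell and recombination genes had these 3 of 11 measured members lower and 0 higher, with a median of -0.564 against -0.041 over all genes. Rag1 (-0.56, adjusted p = 0.17), a subunit of the recombinase, and Vpreb3 (-1.47, adjusted p = 0.39) did not pass.

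Since 3 of the genes that fell encode sequence-specific DNA-binding proteins, the 250 bases before the start site of the common genes were searched for their core motifs on both strands. The sequences come from RefSeq, build GRCm38.p6, and held 46 of the 54 higher and 58 of the 79 lower genes. A gene with several start sites was counted when any of them had a match. The SOX motif AACAAAG lay upstream of 4 higher genes (8.70%) and 0 lower genes, against 5.77% of 27025 genes. The LEF1 motif CTTTGAT, which shares the letters CTTTG with the reverse complement of the SOX motif, lay upstream of 1 higher gene (2.17%) and 0 lower genes, against 3.72%. The MYB motif CAACTG lay upstream of 5 higher genes (10.9%) and 4 lower genes (6.90%), against 12.6%. The SOX share of the higher genes lay above that of all genes and the other 5 shares lay below. No test was made, and a match is a description of letters, not a site.

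The 3 promoters shown belong to genes with large common differences that hold a match, given in capitals. St6galnac3 (chr3:153725134-153725383, minus strand) holds CAGTTG, the reverse complement of the MYB motif, 119 bases before the start. Stat4 (chr1:52007990-52008239, plus strand) holds CTTTGTT, the reverse complement of the SOX motif, 130 bases before it. Sspn (chr6:145933872-145934121, plus strand) holds CAGTTG 68 bases before it. Stat4 and Sspn each have 2 start sites in these sequences, and the stretch before the other site holds no match to the motif named. Each promoter shown is written 5′ to 3′ towards the gene.
St6galnac3: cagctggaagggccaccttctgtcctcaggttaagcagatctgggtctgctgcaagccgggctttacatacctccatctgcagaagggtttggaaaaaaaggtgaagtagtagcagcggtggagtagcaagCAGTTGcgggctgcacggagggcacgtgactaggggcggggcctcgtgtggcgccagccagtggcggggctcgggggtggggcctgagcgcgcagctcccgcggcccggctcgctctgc
Stat4: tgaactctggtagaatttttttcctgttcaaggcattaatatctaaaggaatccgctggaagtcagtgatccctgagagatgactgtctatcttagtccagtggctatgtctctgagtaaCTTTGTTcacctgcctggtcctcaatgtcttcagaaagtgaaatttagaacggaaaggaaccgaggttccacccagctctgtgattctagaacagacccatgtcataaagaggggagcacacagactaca
Sspn: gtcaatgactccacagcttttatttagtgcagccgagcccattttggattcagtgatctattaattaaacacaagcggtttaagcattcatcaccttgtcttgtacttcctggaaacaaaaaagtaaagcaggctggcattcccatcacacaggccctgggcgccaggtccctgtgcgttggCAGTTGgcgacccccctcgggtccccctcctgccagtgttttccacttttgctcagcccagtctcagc

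Several genes of cytokines, surface receptors and signalling molecules were also lower in both fates. Ifng, which encodes interferon gamma, read 3.13 and 2.63 in T1, 1.80 and 2.31 in T2FO, and 1.11 and 1.31 in T3. FO read -0.04 and -0.27 and MZ read -0.04 and 0.04, so neither fate reached the lowest transitional array. The difference was -2.13 ± 0.15 (4.37-fold; adjusted p = 0.00528). Slamf9, a receptor of the SLAM family, read 3.14 and 2.59 in T1, 2.18 and 2.08 in T2FO, and 0.62 and 0.83 in T3. It read -0.14 and -0.48 in FO and -0.32 in both MZ arrays, a difference of -2.22 ± 0.14 (adjusted p = 0.0051). In both genes the T3 arrays lay nearest to the mature cells. Il2ra, which encodes the alpha chain of the interleukin 2 receptor, ran from 0.68 to 2.19 (median 1.45) in transitional arrays and read -0.12, -0.23, 0.14 and 0.03 in FO and MZ. It differed by -1.51 ± 0.18 (adjusted p = 0.0296). Il2ra, like the other genes from outside the naming rule in this and the next paragraphs, was singled out after its values were seen.

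Hivep3, a large zinc finger protein also called Schnurri-3, was the largest fall after Cd93. It read 2.32 and 2.72 in T1, 2.28 and 2.57 in T2FO, and 0.64 and 1.45 in T3. The mature arrays lay between -1.59 and -0.95, with FO and MZ close to each other (-2.97 ± 0.27 and -3.27 ± 0.27 from the transitional mean). The difference was -3.12 ± 0.21, or 8.70-fold (adjusted p = 0.0051), although 1 of its 5 probe sets passed and 3 had the same sign. Wfdc21, a small secreted protein with a whey acidic protein domain, read 4.17 and 2.67 in T1, 2.91 and 2.52 in T2FO, and 0.47 and 0.74 in T3. Its mature arrays lay between -0.91 and -0.22, and the difference was -2.87 ± 0.29 (adjusted p = 0.0177). Neo1, or neogenin, a receptor for netrins and repulsive guidance molecules, fell by 2.44 ± 0.31 (adjusted p = 0.0356). T3 replicate 1 of Neo1 read -1.14, close to the mature range of -1.98 to -1.47, while the other transitional arrays ran from 0.51 to 1.59.

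The rest of the 14 lower genes by the rule were of mixed roles. Akap12 (-2.32 ± 0.20), a scaffold for protein kinase A, and Ehd2 (-1.81 ± 0.19), a membrane-shaping ATPase, fell in both fates. So did Cacna1h (-1.76 ± 0.14), the pore subunit of a T-type calcium channel, B4galnt2 (-1.92 ± 0.16), a glycosyltransferase, and Endou (-2.32 ± 0.29), an endoribonuclease. Spred2, an inhibitor of Ras to ERK signalling, fell by 1.95 ± 0.19. In Spred2 and in Ehd2 only 1 of 5 probe sets passed the rule, and 3 had this sign. Rsad2, or viperin, an antiviral enzyme, fell by 1.80 ± 0.24. Adjusted p in these 7 genes ran from 0.00761 for Cacna1h to 0.0369 for Rsad2.

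Genes that drive the entry into the cell cycle were among the lower genes, while no gene of the proliferation list was. Ccnd2, which encodes cyclin D2, read 0.56 and 1.06 in T1, 0.88 and 1.14 in T2FO, 0.96 and 1.63 in T3, -1.55 and -1.13 in FO, and 0.07 and -0.07 in MZ. It fell by 1.71 ± 0.18 (adjusted p = 0.0219), and 2 of its 7 probe sets passed. Cdk6, the kinase partner of D-type cyclins, fell by 1.07 ± 0.14 and E2f2, a transcription factor of the cell cycle, by 1.75 ± 0.19. Of the 19 proliferation genes measured, 0 were common and 17 had a negative difference, with a median of -0.457. That list stood highest in T3 replicate 2, whose median over the list was 2.248, against -0.444 to 0.07 in the other 5 transitional arrays. The list's median was 0.514 and 1.01 in the T2MZ arrays, -0.949 and -0.543 in FO, and 0.039 and 0.394 in MZ. T3 replicate 2 also had the highest transitional value of Ccnd2 (1.63) and Cdk6 (1.28). In the other 5 transitional arrays Ccnd2 still ran from 0.56 to 1.14, above all 4 mature arrays. Bcl2l1, which encodes the survival protein BCL-XL, was the 1 common gene of 13 in the BCL2 family. It ran from 0.25 to 0.62 in transitional arrays and read -0.07 and -0.25 in FO and -0.34 and -0.36 in MZ, a fall of 0.62 ± 0.09 (adjusted p = 0.0495).

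Genes higher in both mature fates were led by St6galnac3, a sialyltransferase whose promoter is shown above. It read -1.94 and -2.36 in T1, -1.65 and -1.35 in T2FO, -1.12 and -1.61 in T3, 1.05 and 1.28 in FO, and 1.60 and 2.38 in MZ. The classes lay far apart, and the difference was 3.25 ± 0.20 (9.51-fold; adjusted p = 0.0051). One of its 3 probe sets passed and 2 had the same sign. Another 4 common genes of glycan synthesis or transport were higher. They were Galnt6 (1.35 ± 0.14, 2 of 3 probe sets), Mgat4a (1.23 ± 0.11), Slc35d2 (1.14 ± 0.13) and Man1a (0.96 ± 0.09). B4galnt2, which fell, is of the same kind, and no enrichment was tested.

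Stat4, a transcription factor that acts below the interleukin 12 receptor, read -2.83 and -1.95 in T1, -1.60 and -0.77 in T2FO, -0.57 and -0.25 in T3, 1.42 and 2.40 in FO, and 0.13 and 1.32 in MZ. Its difference was 2.65 ± 0.35 (adjusted p = 0.0381), and the spread between replicates was wide. Traf1, an adaptor of the tumour necrosis factor receptors, read -1.98 and -1.89 in T1, -1.24 and -0.85 in T2FO, -0.60 and -0.24 in T3, 0.14 and 0.19 in FO, and 1.13 and 1.44 in MZ. It was higher by 1.86 ± 0.13 (adjusted p = 0.00528), by 1.30 ± 0.17 in FO and by 2.42 ± 0.17 in MZ. Lax1, a membrane adaptor that restrains antigen receptor signalling, was higher by 1.97 ± 0.24 (adjusted p = 0.031). Its transitional arrays ran from -2.56 to -1.11 (median -2.07) and its mature arrays read -0.73, 0.54, -0.03 and 0.40. Gpr183, the receptor for oxysterols that guides B cells within the spleen, was the 1 common gene of 18 in the list of migration and adhesion. It ran from -1.32 to -0.14 (median -0.49) in transitional arrays and read 1.35 and 1.18 in FO and 0.80 and 0.23 in MZ, a rise of 1.45 ± 0.19 (adjusted p = 0.0356). Lpar6, a receptor for lysophosphatidic acid, rose by 1.36 ± 0.14 (adjusted p = 0.0196).

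Plbd1, a phospholipase B domain protein, rose by 2.78 ± 0.35 (adjusted p = 0.0327). It read -0.01 and 0.05 in FO and 1.28 and 1.65 in MZ, against -3.51 to -0.61 in transitional cells. Rhbdf1, an inactive rhomboid protease, was higher by 2.18 ± 0.29, and Vmn2r84, named as a vomeronasal receptor, by 2.34 ± 0.28. Impact, an inhibitor of the kinase GCN2 in translation control, was higher by 1.72 ± 0.20. Hip1, an adaptor of clathrin-coated pits, Gsap, a protein that activates gamma-secretase, and Elac1, a tRNA-processing enzyme, rose by 1.56 ± 0.13, 1.53 ± 0.10 and 1.48 ± 0.12. Kantr, a long non-coding RNA, Bbs2, a subunit of the BBSome, and Zfp946, a zinc finger protein, completed the 14 (1.79 ± 0.24, 1.48 ± 0.19 and 1.48 ± 0.14). Adjusted p in these genes ran from 0.0051 for Gsap to 0.0402 for Kantr.

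Other common genes that were higher encode proteins of the cytoskeleton or of chromatin. They were picked after their values were seen, and no enrichment was tested. Gsn, or gelsolin, which severs actin filaments, rose by 1.33 ± 0.14, with 6 of its 6 probe sets of the same sign. Cyria (1.25 ± 0.09), which binds Rac, and Plek (1.25 ± 0.17), a substrate of protein kinase C, rose as well. Smarca2, an ATPase of the SWI/SNF complex, rose by 1.40 ± 0.19. In Cyria and in Smarca2 only 1 of 2 probe sets had this sign. Kmt2a, a histone methyltransferase, rose by 0.80 ± 0.11, more in FO (1.22 ± 0.14) than in MZ (0.38 ± 0.14), with MZ minus FO not called (adjusted p = 0.284). Its classes overlapped, with a lowest mature value of -0.02 and a highest transitional value of 0.10. Clock, a transcription factor of the circadian oscillator, rose by 0.98 ± 0.14, and Cipc, which interacts with CLOCK, by 1.15 ± 0.16. Csnk1e, a kinase of the same oscillator, fell by 1.16 ± 0.14.

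Interferon response genes were the list with the largest median shift, and 1 of its 13 measured members, Rsad2, was common. Rsad2 read 2.61 and 2.85 in T1, 2.56 and 1.44 in T2FO, 1.35 and 1.59 in T3, 0.10 and -0.11 in FO, and 0.81 and 0.27 in MZ. The difference was negative in 12 of the 13 genes, with a median of -1.353 against -0.041 over all genes. Mx1, a GTPase that blocks viruses, had -1.48 ± 0.25 (adjusted p = 0.0677), and Oasl2 had -1.80 ± 0.52 (adjusted p = 0.212). Stat2, part of the factor that turns these genes on, had the opposite sign (0.82 ± 0.20, adjusted p = 0.152). The median over the list was 1.392 and 1.92 in T1, 1.226 and 0.403 in T2FO, 0.473 and 1.324 in T3, 0.126 and -0.107 in FO, and 0.33 and -0.001 in MZ. All transitional arrays lay above all mature arrays on this median, and the T2MZ arrays read 0.341 and 0.251. Ifnar2, a chain of the type I interferon receptor, was the 1 common gene of 16 cytokine receptors, with a fall of 0.65 ± 0.09 (adjusted p = 0.0427).

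**Figure D2:**
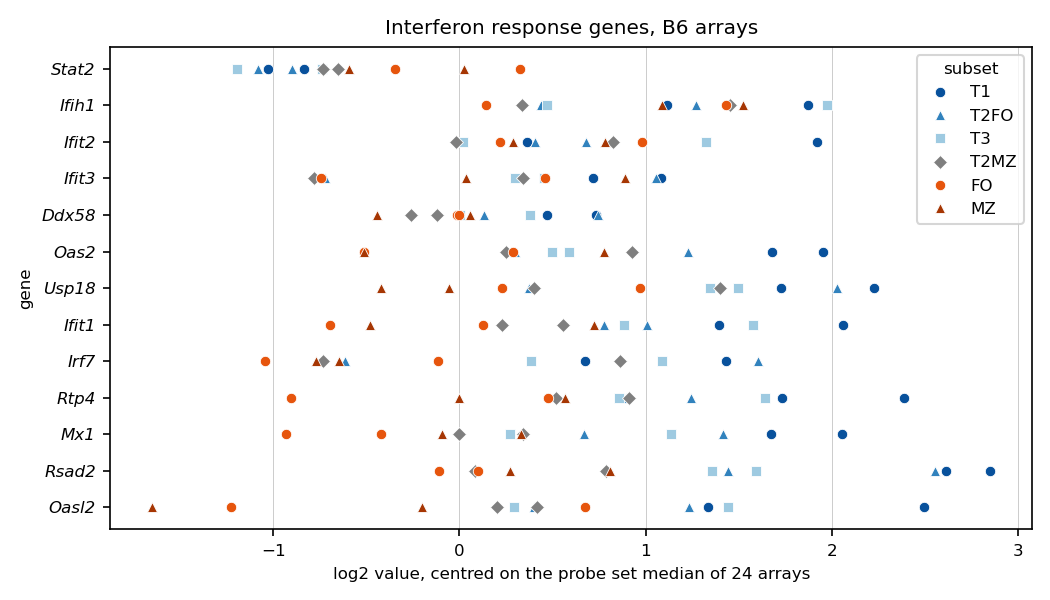
Centred log2 values (horizontal axis) of the 13 interferon response genes measured (vertical axis), 1 point per B6 array. In Rsad2 every mature array lies below every transitional array, from -0.11 to 0.81 against 1.35 to 2.85, while in most other genes the classes overlap.

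Beside the sort genes, 5 of the 27 lists held a common gene and 21 held 0. The 8 GIMAP GTPases, which regulate lymphocyte survival, all had a positive difference (median 0.369), the largest being Gimap4 (1.73 ± 0.31, adjusted p = 0.0787). The list's median was 0.744 and 1.31 in FO and 0.799 in MZ replicate 2, but -0.484 in MZ replicate 1, below the transitional arrays (-0.142 to 0.33). The 10 genes of Myc and ribosome biogenesis had a median of 0.517, and the 16 of the Notch pathway and marginal zone 0.494. On the arrays the last list had a median of 0.906 and 0.381 in MZ, but -0.323 and -0.253 in FO. It was -0.266 to 0.026 in transitional cells, and 0.331 and 0.136 in T2MZ. MZ and T2MZ thus stood above the transitional arrays, and FO did not. In 12 genes of quiescence the median was -0.343, in 9 regulators of G protein signalling -0.306, in 9 genes of canonical NF-kB -0.31, in 20 B lineage transcription factors -0.275 and in 12 of the plasma cell and secretion -0.139. The 8 genes of BAFF receptors and noncanonical NF-kB (-0.046), 17 of antigen receptor signalling (0.119) and 12 inhibitory receptors and phosphatases (-0.088) had medians near that of all genes. Medians were 0.201 over 15 genes of MHC class II and costimulation, 0.036 over 15 Toll-like receptors and adaptors, 0.264 over 8 of the SLAM family and 0.165 over 14 immediate early and stress genes. Listed genes without a probe set of their own were not analysed here.

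Markers of other cell types held 0 common genes, but 1 array stood apart. The median over 14 myeloid genes was 1.287 in MZ replicate 2 and -0.258 to 0.254 in the other 11 B6 arrays. Spic, a transcription factor of red pulp macrophages, read 0.02 in MZ replicate 1 and 1.79 in MZ replicate 2. The medians over the T cell, dendritic cell, NK cell, erythroid and platelet, and plasma cell lists ran from -0.528 to 0.463 in all 12 arrays. Over the 54 higher genes the median was 0.582 in MZ replicate 1 and 0.648 in MZ replicate 2, and both arrays entered the choice of these genes. The part of the myeloid signal in the result was not tested beyond leaving that array out. Without MZ replicate 2, 17 genes were common, of which 16 were among the 133. That was the lowest count, reached also without FO replicate 2. Without the other arrays the count ran from 20 (T1 replicate 1) to 69 (T2FO replicate 2). Of the 32 common genes named by the rule, apart from the sort genes, 7 were called whichever array was left out. They were St6galnac3, Traf1, Gsap, Hivep3, Slamf9, Ifng and Cacna1h. Another 7, among them Stat4, Gpr183, Bcl2l1 and Ifnar2, were called in none of these smaller fits. Sox4 was called in 2 of the 10 (adjusted p 0.027 to 0.11), Myb in 1 (0.0403 to 0.136) and Lef1 in 1 (0.0413 to 0.112). The sign stayed the same in all 32.

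The arrays also fell into 2 divisions that cut across the classes. The control probe set near the 5′ end of beta-actin was low in replicate 2 of T1, T2FO and T3 and in replicate 1 of FO and MZ, and higher in the other 5 arrays. Its signal was -4.04 to -3.27 in the transitional and -3.51 to -3.47 in the mature arrays of the lower division. In the higher division it was -1.36 to -0.77 in the transitional and 0.42 to 0.47 in the mature arrays. At the 3′ end of beta-actin it was -0.37 to 0.07 in all 10. The 3′ control of Gapdh did differ, with -1.58 to -0.47 in the lower division and -0.08 to 0.23 in the higher division. The common genes were chosen on both divisions together, so their agreement between the divisions is in part set by that choice and is given as a description. All 133 had the same sign in both, and 122 did not overlap in either of them. Each division holds only 3 transitional and 2 mature arrays, and the share of all genes separated in this way is not given here. The median difference over the higher genes was 1.091 in the lower and 1.384 in the higher division, and over the lower genes -1.271 and -1.414. For Sox4 the values were -2.71 and -2.57, for Ifng -2.13 in both, and for Stat4 1.76 and 3.53. With the arrays of the lower division alone 0 genes were called by limma, and with those of the higher division alone 3339 were, a division analysis added after the values were seen. Each division holds 1 array per subset, so the main model of 1 mean per group could not be fitted there. These counts come from a different model and are not comparable with that of the main fit.

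**Figure D3:**
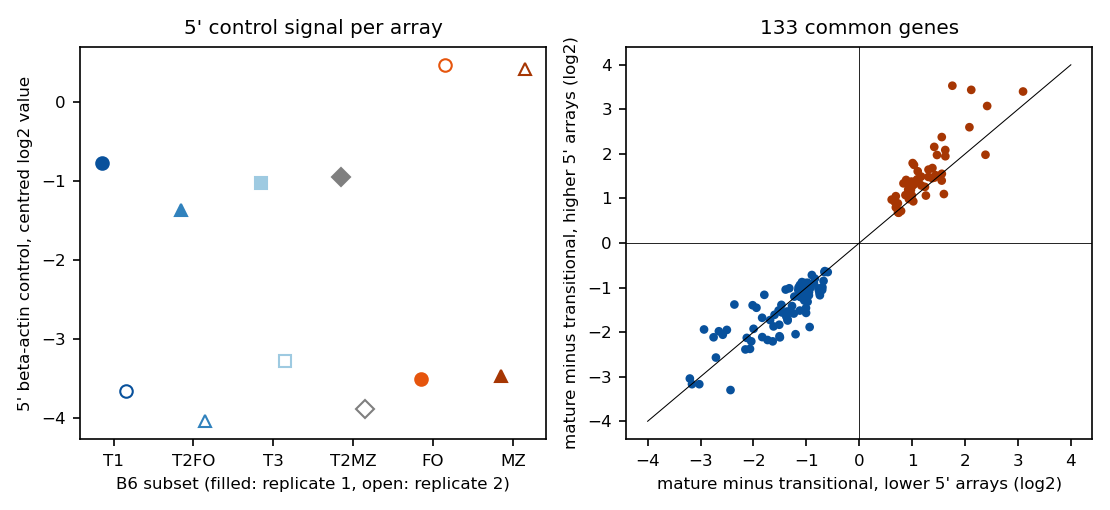
Left, the centred log2 value of the 5′ beta-actin control (vertical axis) in each B6 array by subset (filled points replicate 1, open points replicate 2); the values fall into a lower and a higher division. Right, mature minus transitional in log2 units for the 133 common genes in the lower (horizontal axis) and the higher division (vertical axis), with the line of equal values; all 133 points lie in the quadrants of equal sign.

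Within the transitional cells the medians over the common genes followed the order T1, T2FO, T3. Over the 54 higher genes the median of the 2 arrays averaged -0.954 in T1, -0.678 in T2FO and -0.483 in T3, then 0.422 in FO and 0.615 in MZ. Over the 79 lower genes it averaged 1.063 in T1, 0.756 in T2FO and 0.314 in T3, then -0.462 in FO and -0.521 in MZ. In both sets both T1 arrays lay farthest from the mature cells and both T3 arrays nearest, without overlap between the subsets. The gap between the classes was fixed by the choice of genes, while the order within the transitional arrays was not. T3 against T1 called 0 genes (0% of 18193) by limma, with 1012 probe sets at an unadjusted p under 0.05, and 12 genes in the crossed block. The medians rest on many genes measured on the same arrays and carry no test.

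**Figure D4:**
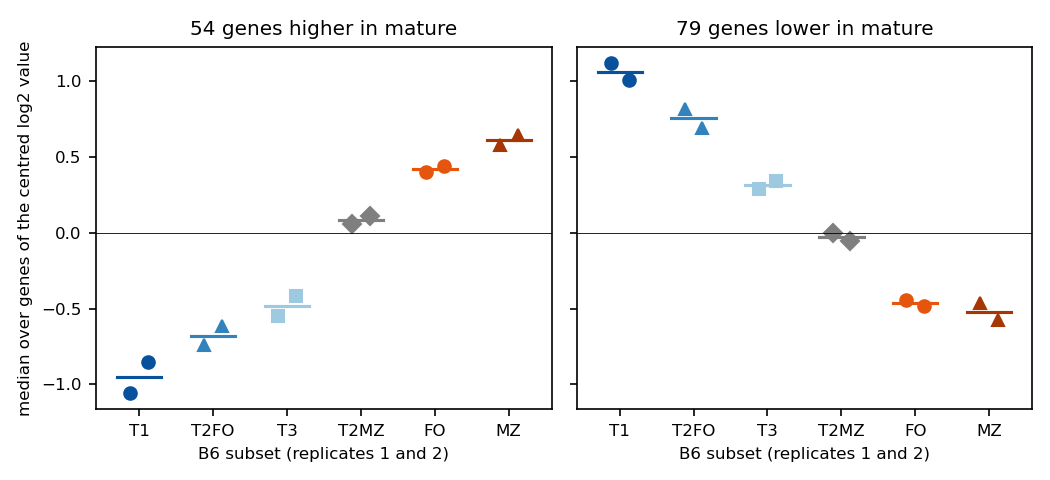
Median centred log2 value (vertical axis) over the 54 genes higher (left) and the 79 genes lower (right) in mature cells, for each B6 array by subset (points) and the mean of the 2 arrays (bars). T1, T2FO and T3 lie in that order, with T2MZ between T3 and FO.

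The gene with the most graded pattern among those named was Wfdc21, whose T3 minus T1 was -2.81 ± 0.45 (adjusted p = 0.525). Slamf9 had -2.14 ± 0.22 and Atp1b1 -1.99 ± 0.20 (adjusted p = 0.166 in both), and Traf1 had 1.51 ± 0.21 (adjusted p = 0.415). Other genes were not graded that way. T3 minus T1 was -0.02 ± 0.45 for Sox4, 0.71 ± 0.38 for Myb, 0.77 ± 0.22 for Lef1 and 0.68 ± 0.22 for Cdk6, so the T3 arrays of the last 3 lay at or beyond the T1 arrays, away from the mature cells. None of these passed.

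Between the fates, MZ and FO differed in 32 genes (0.176%; 26 higher in MZ and 6 lower), and 2 of them were common genes. The block on the replicate number gave 13 genes, and 208 with the numbers crossed. At an unadjusted p under 0.05 by limma, MZ and FO differed in 53 of the 133 common genes, against 1010 of all genes (5.55%). The common genes were chosen by small p in the same fit, which favours small errors and raises such a count. The 53 are therefore a description. By the rule, common to both fates means the same direction and not the same size. Atp1b1, the beta subunit of the sodium pump, read 0.55 and 0.49 in T1, -0.07 and 0.07 in T2FO, -1.68 and -1.28 in T3, -1.61 and -1.97 in FO, and -4.91 and -5.16 in MZ. FO overlapped with T3, and MZ lay far below both. Its common difference was -3.10 ± 0.13 (adjusted p = 0.00107), with 3 of 5 probe sets passing. Myadm, a membrane protein named for myeloid differentiation, read 1.70 and 1.63 in T1, 1.20 and 1.34 in T2FO, 0.35 and -0.12 in T3, 0.16 and -0.29 in FO, and -2.34 and -1.96 in MZ. It too overlapped between T3 and FO. With these, 16 of the 133 common genes had overlapping classes.

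The T2MZ arrays, which took no part in the choice of genes, lay between the classes and, in most of these genes, nearer to the mature side. The median over the higher genes was 0.056 and 0.114 in the 2 T2MZ arrays, and over the lower genes -0.001 and -0.056, between the T3 and the FO arrays in each case. In 93 of the 133 genes (69.9%) the T2MZ mean lay on the mature side of the midpoint of the class means, in 38 of 54 higher and 55 of 79 lower genes. The median position was 63.2% of the way from the transitional mean (0%) to the mature mean (100%), with quartiles of 48.2% and 77.8%. By single arrays 81 genes lay on the mature side in T2MZ replicate 1 and 99 in replicate 2. Both arrays did in 69 genes, neither did in 22, and 42 were split. Both lay within the range of the mature arrays in 26 genes and within that of the transitional arrays in 10. Against the midpoint of their own 5′ division, the counts were 83 and 99. Across all genes, T2MZ against the midpoint called 0 genes (0%) by limma, with 1153 probe sets at an unadjusted p under 0.05. Among the common genes such a p was reached by 30 on the mature and 5 on the transitional side. These genes were chosen by small p on arrays that also enter this fit, which favours small errors and raises such counts. The 1153 counts probe sets, and the share over all genes is not given here.

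The side on which T2MZ lay varied with the size of the difference. Of the 48 genes that differed by 1.5 log2 units or more, 44 (91.7%) had T2MZ on the mature side, of the 53 between 1 and 1.5 it was 39 (73.6%), and of the 32 under 1 it was 10 (31.2%). The share also differed between analyses, without following the number of genes alone. With probe sets averaged it was 76.4% of 144 genes, and with the 6 B6 groups sharing the spread 62.3% of 265. In the fit with the replicate block 330 genes were common and 40.3% lay on the mature side. With the FO and MZ numbers crossed in that block 1740 genes were common and 35.5% did, by 28.8% in T2MZ replicate 1 and 63.2% in replicate 2. With all 12 groups sharing the spread it was 39.7% of 977 genes, by 32.1% in T2MZ replicate 1 and 56.3% in replicate 2. In these last 2 sets replicate 1 lay on the transitional side in most genes and replicate 2 on the mature side in most.

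**Figure D5:**
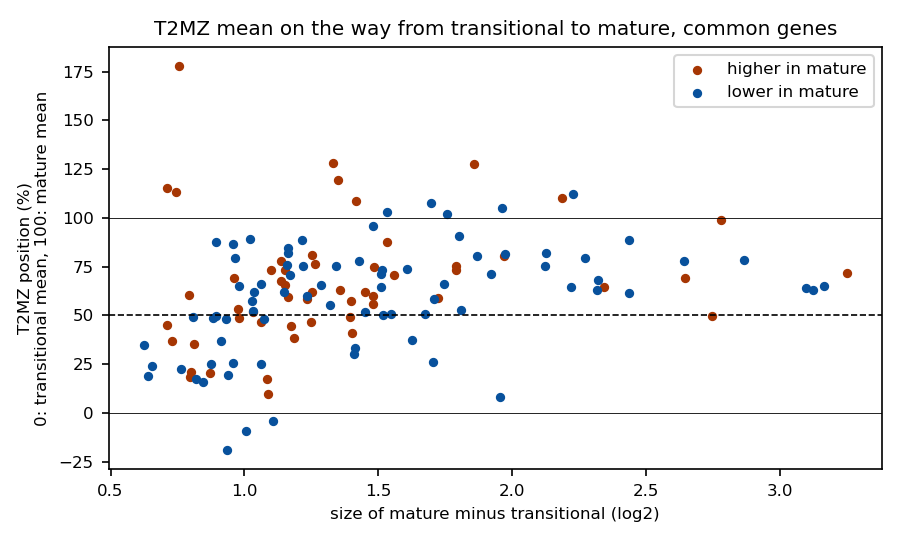
Position of the T2MZ mean between the transitional mean (0%) and the mature mean (100%) (vertical axis) against the size of the difference between the classes in log2 units (horizontal axis), 1 point per common gene. Of the genes at 1.5 log2 units or more, 44 of 48 lie above the dashed midpoint; of those under 1, 10 of 32 do.

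Genes at either end of this scale, named after their values were seen, show the mixture. Traf1 read 1.59 and 0.89 in T2MZ, beyond the FO arrays and about those of MZ, at 127.7% of the way. Gsn stood at 128.1% and Galnt6 at 119.4%. Among the lower genes Cacna1h read -0.07 and -0.10 in T2MZ, at 102.1%, and Ifng read -0.31 and 0.92. Sox4 read -0.61 and 0.08 in T2MZ, at 77.7%, between the FO and MZ means, and Myb (80.6%) and Lef1 (88.8%) were placed alike. At the other end Spred2, by the 1 of its 5 probe sets that passed, read 0.48 and 0.23 in T2MZ. These values lay within or just below its transitional range of 0.28 to 0.95, at 8.3% of the way. Its mature arrays read -0.88, -1.53, -1.37 and -1.97. Siva1, which takes part in cell death signalling, read 0.67 and 0.68 in T2MZ and 0.29 to 0.67 in transitional cells, at -19%. Rnf26 (-4.4%), a ubiquitin ligase, and Znrd2 (-9.4%) also lay at the transitional mean or short of it, as the 3 genes below 0%. Ccnd2 stood at 26.1% and Bcl2l1 at 34.7%, with T2MZ nearer to the transitional cells. Cd93 itself stood at 65.2%.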

How the data were processed

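Per the submitters' processing notes the authors used RMA, and they deposited log2 values of 45101 probe sets. Neither the version of RMA nor the log base, assumed to be 2, was given in the sources used here. Each probe set was found centred on its median over 24 arrays (largest median 5e-07), so no filter on dim probe sets was possible. Of 45037 probe sets left without 64 controls, 34945 had 1 gene in the platform's annotation, 932 several and 9160 none; 34741 matched GRCm38.p6 gene numbers.

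The 5 groups (10 arrays) were fitted with limma 3.58.1 in R 4.3.3, 1 mean per group, with eBayes and Benjamini-Hochberg adjustment over all 45037 probe sets at 0.05. Residual degrees of freedom were 5, and the root mean square spread between replicates was 0.44. The highest correlation between 2 of the 10 arrays was 0.886, so no array repeated another. The number of arrays limits the precision, and array medians ran from -0.019 to 0.06. A gene's value is that of its common probe set with the smallest p. Errors are standard errors. Subsets of 1 experiment share a pool of mice and were fitted as independent arrays. The fit was tested on simulated data with known changes. The simulated noise was independent between arrays, whereas deviations of the real arrays were correlated, so error rates under such correlation were not tested.

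Replicate numbers run from 1 to 2 in each subset, and the labels do not say whether equal numbers mark the same experiment. Deviations of same-numbered arrays from their group means correlated at 0.71 to 0.873 within the transitional or mature class and at -0.62 to -0.368 between classes. The 5′ divisions split the arrays in the same way, so these correlations do not show which arrays came from the same experiment. The block was fitted as numbered and with the FO and MZ numbers crossed; it leaves the difference between the classes unchanged and alters its error.

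Named were the 14 largest common differences each way without overlap between the classes, leaving out sort genes, immunoglobulin genes and clone names. From each list up to 4 common members were added, or the 2 of smallest p where none was common. Called differences of T3 from T1 and of T2MZ from the midpoint would have been named too, and there were 0. The subset rule, the 27 gene lists and the tests were chosen with earlier results of these data known. Alternatives were the blocks, a 5′ minus 3′ control covariate, other sets of arrays sharing the spread, other choices of probe set, median-centred arrays, other definitions of common, and each array left out. Figures were drawn with matplotlib 3.10.9.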

Additional observations from a re-analysis of the deposited data

Results flagged for a closer look

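Atp1b1 and Myadm were common to both fates and yet differed between them by the test of MZ against FO itself. Atp1b1 was lower in MZ than in FO by 3.24 log2 units (MZ minus FO -3.24, limma adjusted p = 0.0074), with -1.47 ± 0.17 in FO and -4.72 ± 0.17 in MZ against the transitional mean. Myadm was lower in MZ by 2.08 (MZ minus FO -2.08, limma adjusted p = 0.0487), with -1.08 ± 0.20 in FO and -3.16 ± 0.20 in MZ. In both genes the MZ arrays lay below all FO arrays, and the direction was the same in both fates.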

How the results depend on the processing

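The class difference called 157 genes, 133 of them common to FO and MZ, 0 genes between T3 and T1 and 32 between MZ and FO, with T2MZ on the mature side in 69.9% of common genes. With the replicate block these values were 362, 330 (130 of the 133 kept), 0, 13 and 40.3%. With the FO and MZ numbers crossed in the replicate block they were 2155, 1740 (132 kept), 12, 208 and 35.5%. With the 5′ minus 3′ control covariate they were 2631, 2193 (132 kept), 0, 154 and 35.6%. With the 6 B6 groups sharing the spread 310 genes were called, 265 were common (129 kept) and T2MZ lay on the mature side in 62.3%. With all 12 groups the values were 1189, 977 (127 kept), 22, 190 and 39.7%. With 1 probe set per gene T2MZ lay on the mature side in 83.5%. With each fate called on its own 9 genes were common (2 higher, 7 lower), and T2MZ lay on the mature side in 100%. Centring arrays on their medians or averaging probe sets moved neither the called nor the common count by over 1.5 times, but with probe sets averaged 83 of the 133 were kept among 144, with 76.4% for T2MZ. Leaving out 1 array gave 20 to 77 genes called, 17 to 69 common, 0 to 27 between MZ and FO and 73.7% to 100% for T2MZ, with fewer degrees of freedom by construction. In the arrays of lower 5′ signal alone 0 genes were called and in those of higher signal alone 3339, by a model that could not hold 1 mean per group. The cause of the other shifts was not tested. Over all named genes and alternatives 1156 values kept direction and call, 279 lost the call, 62 gained it and 3 changed sign. Those 3 had not been called: Slamf1 with probe sets averaged (0.0501), and Klrk1 (0.0218) and Pf4 (0.0293) in the arrays of lower 5′ signal. Signal over background was not to be had from centred values.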
